A study of Homo sapiens with 9 samples.

Results

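The mitochondrial ribosomal protein genes were taken as the protein-coding genes of GENCODE version 44 whose names read MRPL or MRPS, then a number and at most 1 letter from A to C. The rule found 78 genes among 20046 protein-coding genes, 49 of the large subunit (MRPL) and 29 of the small subunit (MRPS). Each was examined for peaks of POLR2A, the catalytic subunit of RNA polymerase II, as mapped by ChIP-seq (sequencing of DNA that precipitates with the protein) in HEK293T, a line from human embryonic kidney. A gene was counted as having a peak when the summit, the position of highest signal in the peak, lay within 1000 bp of one of its annotated transcript starts. The conditions compared were cells with a control shRNA (shCtrl, genotype label wildtype), cells with knockdown of U2AF1 and cells with knockdown of DHX9. U2AF1 is the small subunit of the factor that reads the 3′ splice site, and DHX9 is a helicase that unwinds RNA and RNA-DNA hybrids. All groups shared the cell line and the POLR2A antibody, and 2 ChIP replicates with 1 input were made per condition. The labels give neither the degree of knockdown nor its duration.

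The mitochondrial ribosome is a ribosome of its own inside the organelle, where it translates the few respiratory chain proteins encoded in mitochondrial DNA. Its RNAs come from that DNA, whereas all of its proteins come from nuclear genes that are transcribed by RNA polymerase II, translated in the cytosol and imported. Some of these proteins have bacterial homologues and others are found only in mitochondria. The genes are active in most cells, and many of their promoters are known to carry sites for NRF1 and for the ETS family factor GABPA.

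The deposited data used here were 3 lists of peaks, 1 per condition. Their lengths were 2757 peaks with the control shRNA, 1730 after U2AF1 knockdown and 4443 after DHX9 knockdown. With 1 list per condition no value has a replicate error, and no difference between lists could be tested against the spread between replicates. The control peaks are named as if from replicate 1, so their list may rest on 1 library. Read depth is unknown from the lists, and a gene without a peak is a gene not detected at that depth, not a gene without polymerase. At the start of U2AF1 a peak stood in both knockdown lists (rank 1100 and 3210 by fold enrichment) and none in the control list, and DHX9 had a start peak in each list, which records polymerase and not the extent of knockdown. Of 8 genes listed as markers of this cell line, 0 had a start peak in the control list (95% Wilson interval up to 32.4%). Of 13 markers of other tissues only ACTN2 had a start peak, in all 3 lists. Marker genes therefore did not identify the cell line in the control list.

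The following 6 promoters are shown first, for members on which the results turn: the 2 members with a peak in every list (MRPS5 and MRPL57), a member found in both knockdown lists only (MRPL17) and 3 high members of the DHX9 knockdown list. They are RefSeq promoters on GRCh38.p14, from 250 bases before to 50 bases after a start, written 5′ to 3′ along the gene. Capitals mark matches, on either strand, to the NRF1 core GCGCATG, the ETS core CCGGAAG or the YY1 sequence AANATGGCG. They were chosen for their place in the lists and to show these matches.
MRPS5 (chr2:95121954-95122253, minus strand): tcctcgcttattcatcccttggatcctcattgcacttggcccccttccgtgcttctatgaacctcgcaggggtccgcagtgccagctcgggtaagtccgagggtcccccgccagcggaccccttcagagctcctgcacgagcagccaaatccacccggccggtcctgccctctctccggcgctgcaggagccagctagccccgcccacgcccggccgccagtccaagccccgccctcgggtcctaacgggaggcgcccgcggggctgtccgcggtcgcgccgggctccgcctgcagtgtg
MRPL57 (chr13:21176408-21176707, plus strand): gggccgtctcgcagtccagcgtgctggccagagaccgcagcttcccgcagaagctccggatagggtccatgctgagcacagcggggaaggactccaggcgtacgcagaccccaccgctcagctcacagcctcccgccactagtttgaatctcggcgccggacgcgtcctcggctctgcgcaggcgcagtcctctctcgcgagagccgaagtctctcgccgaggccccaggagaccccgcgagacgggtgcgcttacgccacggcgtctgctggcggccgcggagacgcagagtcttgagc
MRPL17 (chr11:6683291-6683590, minus strand): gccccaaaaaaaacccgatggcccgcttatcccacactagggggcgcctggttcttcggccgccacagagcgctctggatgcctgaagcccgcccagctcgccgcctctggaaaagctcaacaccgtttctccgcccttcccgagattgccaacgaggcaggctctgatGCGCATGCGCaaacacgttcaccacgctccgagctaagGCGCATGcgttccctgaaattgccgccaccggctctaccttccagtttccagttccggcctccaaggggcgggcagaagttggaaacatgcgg
MRPS33 (chr7:141014903-141015202, minus strand): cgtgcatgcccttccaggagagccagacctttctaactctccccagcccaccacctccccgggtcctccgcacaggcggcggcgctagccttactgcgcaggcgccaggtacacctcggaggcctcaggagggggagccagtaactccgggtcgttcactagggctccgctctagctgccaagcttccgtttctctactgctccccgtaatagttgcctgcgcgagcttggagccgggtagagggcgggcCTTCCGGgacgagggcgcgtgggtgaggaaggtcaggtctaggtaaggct
MRPS24 (chr7:43869468-43869767, minus strand): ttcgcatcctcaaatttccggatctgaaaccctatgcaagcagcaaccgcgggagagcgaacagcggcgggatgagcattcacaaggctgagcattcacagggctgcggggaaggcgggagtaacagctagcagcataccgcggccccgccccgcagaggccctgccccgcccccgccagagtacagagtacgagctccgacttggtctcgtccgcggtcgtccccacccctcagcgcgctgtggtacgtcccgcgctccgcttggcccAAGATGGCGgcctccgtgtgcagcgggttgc
MRPS34 (chr16:1773085-1773384, minus strand): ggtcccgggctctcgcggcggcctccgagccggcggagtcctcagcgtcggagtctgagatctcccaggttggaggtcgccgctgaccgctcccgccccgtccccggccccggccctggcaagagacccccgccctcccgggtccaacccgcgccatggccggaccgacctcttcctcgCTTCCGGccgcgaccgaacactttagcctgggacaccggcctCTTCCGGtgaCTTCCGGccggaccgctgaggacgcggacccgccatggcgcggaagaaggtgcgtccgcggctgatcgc

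Counted from the RefSeq start, the DHX9 knockdown summit lay at 17 bp in MRPS33, 86 bp in MRPS24 and 135 bp in MRPS34, in each case downstream. For MRPS5 the RefSeq start is the upstream one, and the canonical start in GENCODE lies 195 bp farther downstream, outside the window shown. Its control and U2AF1 knockdown summits, at 180 and 269 bp from the RefSeq start, lie outside the window too, and the DHX9 knockdown summit lies inside it at -114 bp. In MRPL17 the summits lay at 84 bp under U2AF1 knockdown and 111 bp under DHX9 knockdown. The MRPL17 promoter holds the NRF1 core 3 times, from -81 to -72 as an overlapping pair on both strands and from -43 to -37. The MRPS34 promoter holds the ETS core 3 times between -71 and -13. In MRPS33 the ETS core spans bases 1 to 7, at the start itself, and in MRPS24 the YY1 sequence spans bases 20 to 28. MRPS5 and MRPL57, the members present in every list, hold none of these motifs in the windows shown. The share of G and C in these chosen promoters ran from 62.0% in MRPL17 to 73.7% in MRPS34, and no background is given for such windows. In the bases after the canonical start, described further below, the median share was lower in members than in all protein-coding genes.

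Of the 78 genes, 18 had a start peak with the control shRNA, 6 after U2AF1 knockdown and 34 after DHX9 knockdown. The control share was 23.1% (95% Wilson interval 15.1 to 33.6), beside 12.6% of all protein-coding genes. After U2AF1 knockdown it was 7.69% (3.57 to 15.8), close to the 6.64% of all protein-coding genes. After DHX9 knockdown it was 43.6% (33.1 to 54.6), beside 21% of all protein-coding genes. At least 1 list had a peak at 42 members, or 53.8% (42.9 to 64.5), against 24.9% of all protein-coding genes. The comparison over all genes includes genes that are silent in these cells, and expression was not measured. These intervals cover counting error only, since genes are not replicates of a condition.

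**Figure D1:**
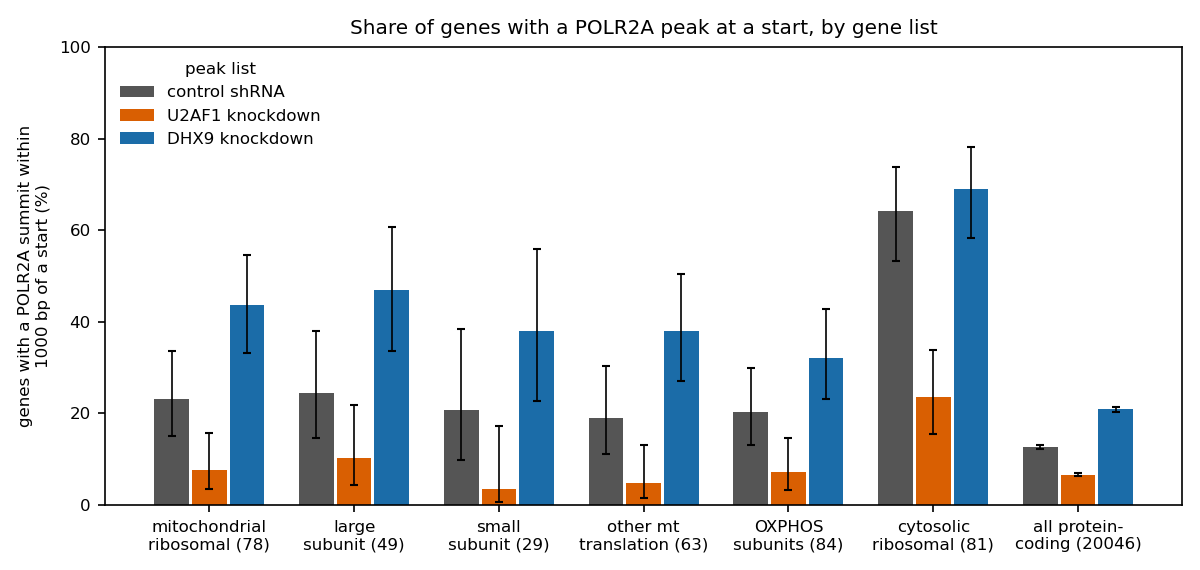
Percent of genes (vertical axis) with a POLR2A summit within 1000 bp of a start, for 7 gene lists (horizontal axis, number of genes in brackets) in the 3 peak lists; bars are shares and error bars 95% Wilson intervals. Mitochondrial ribosomal protein genes stand at 23.1% (control), 7.69% (U2AF1 knockdown) and 43.6% (DHX9 knockdown), and cytosolic ribosomal protein genes are higher in each.

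The shares were also counted in shortened lists, which by construction can only lose members. Equal length leaves the U2AF1 knockdown list as it was. When each list was limited to its 1730 most significant peaks, the members with a peak numbered 8 (10.3%) for the control, 6 (7.69%) for U2AF1 knockdown and 10 (12.8%) for DHX9 knockdown, beside 8.05%, 6.64% and 8.44% of all protein-coding genes. With peaks of −log10 q of at least 5 only, the numbers were 12 (15.4%), 3 (3.85%) and 20 (25.6%), beside 9.16%, 3.92% and 14% of all protein-coding genes, and 0 members were left in all lists, beside 2.51%. List length and depth cannot be told apart from condition with these lists.

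Large and small subunit genes had shares with intervals that overlap widely. MRPS18A and MRPS30, counted by name, are known as residents of the large subunit, and MRPS36 as a part of another mitochondrial enzyme. With the control shRNA 12 of 49 large subunit genes (24.5%, 14.6 to 38.1) and 6 of 29 small subunit genes (20.7%, 9.85 to 38.4) had a peak. After U2AF1 knockdown 5 large subunit genes (10.2%, 4.44 to 21.8) and 1 small subunit gene (3.45%, 0.611 to 17.2) had one. After DHX9 knockdown it was 23 (46.9%, 33.7 to 60.6) and 11 (37.9%, 22.7 to 56.0). Of all protein-coding genes, 12.6% (control), 6.64% (U2AF1 knockdown) and 21% (DHX9 knockdown) had a peak. Among the 10 DHX9 members left with equal list lengths, the large subunit stood at 8.16% and the small subunit at 20.7%, so the order of the subunits turned. In the control list the order turned as well, to 8.16% and 13.8% at equal length and to 12.2% and 20.7% with −log10 q of at least 5. At equal length all protein-coding genes stood at 8.44% (DHX9 knockdown) and 8.05% (control), near the large subunit. With −log10 q of at least 5 they stood at 9.16% in the control list. Split by origin, 11 of 47 genes with a bacterial homologue and 7 of 31 mitochondria-specific genes had a control peak. After U2AF1 knockdown these numbers were 5 and 1, and after DHX9 knockdown 18 (38.3%, 25.8 to 52.6) and 16 (51.6%, 34.8 to 68.0).

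The members were also sorted by the lists in which they had a peak. Only MRPL57 and MRPS5 had a peak in all 3, 2.56% of the members (0.706 to 8.88), near the 4.03% of all protein-coding genes. A further 10 had a peak in the control and DHX9 knockdown lists but not in the U2AF1 knockdown list, namely MRPL20, MRPL27, MRPL34, MRPL36, MRPL37, MRPL40, MRPL55, MRPS6, MRPS7 and MRPS18C. These are 12.8% of the members, beside 5.49% of all protein-coding genes. MRPL12 and MRPL17 were found in both knockdown lists but not in the control list (2.56%, beside 1.38%), and 0 members in the control and U2AF1 knockdown lists alone, beside 0.434%. The control list alone held 6 (MRPL10, MRPL15, MRPL41, MRPL53, MRPS21 and MRPS25) and the U2AF1 knockdown list alone 2 (MRPL13 and MRPL33), or 7.69% and 2.56%, beside 2.66% and 0.808% of all protein-coding genes. The largest group, 20 genes or 25.6%, was in the DHX9 knockdown list only, beside 10.1% of all protein-coding genes. It held MRPL1, MRPL2, MRPL9, MRPL18, MRPL21, MRPL30, MRPL38, MRPL39, MRPL42, MRPL48, MRPL49, MRPL51, MRPL58, MRPS18A, MRPS24, MRPS26, MRPS27, MRPS33, MRPS34 and MRPS35.

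The other 36 members had no peak at a start in any list. They were MRPL3, MRPL4, MRPL11, MRPL14, MRPL16, MRPL19, MRPL22, MRPL23, MRPL24, MRPL28, MRPL32, MRPL35, MRPL43, MRPL44, MRPL45, MRPL46, MRPL47, MRPL50, MRPL52 and MRPL54 of the large subunit. Of the small subunit they were MRPS2, MRPS9, MRPS10, MRPS11, MRPS12, MRPS14, MRPS15, MRPS16, MRPS17, MRPS18B, MRPS22, MRPS23, MRPS28, MRPS30, MRPS31 and MRPS36. MRPS12, a protein of the decoding centre, and MRPL11, of the stalk base that contacts translation factors, were among them. Their nearest summits lay far away, at a median of 306254 bp (control), 307842 bp (U2AF1 knockdown) and 132278 bp (DHX9 knockdown). MRPL35 came nearest in each list, at 4091, 4119 and 4015 bp.

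**Figure D2:**
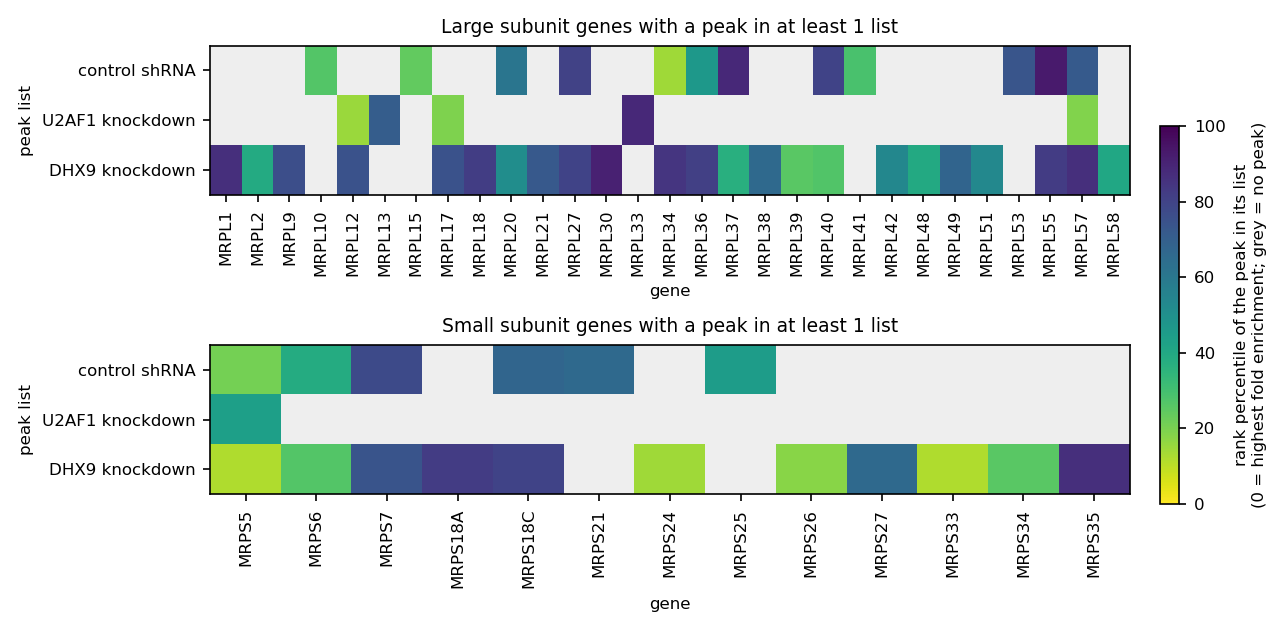
Rank percentile of the peak at each of the 42 members with a peak in at least 1 list (horizontal axis, genes; vertical axis, the 3 peak lists), where 0 is the highest fold enrichment in the list and grey is no peak. The row of the DHX9 knockdown list is filled for 34 genes and the row of the U2AF1 knockdown list for 6, and only MRPL57 and MRPS5 are filled in all 3 rows.

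Of the 18 members with a control peak, 2 also had a U2AF1 knockdown peak (11.1%, 3.1 to 32.8), whereas 894 of the 2527 protein-coding genes with a control peak did (35.4%, 33.5 to 37.3). Above the middle rank of the control list the numbers were 1 of 8 members and 44.5% of protein-coding genes, and below it 1 of 10 members and 24.2%. With the DHX9 knockdown list 12 of the 18 were shared (66.7%, 43.7 to 83.7), beside 75.5% of protein-coding genes. In the other direction 12 of 34 members with a DHX9 knockdown peak had a control peak (35.3%, 21.5 to 52.1), beside 45.4% of protein-coding genes. Above the middle rank of the DHX9 knockdown list this was 4 of 12 members (33.3%, 13.8 to 60.9) beside 57.7%, and below it 8 of 22 (36.4%, 19.7 to 57.0) beside 30.3%. Both knockdown lists are set against the same control list here, so the overlaps are not independent.

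Most member peaks were of moderate or low rank within their list. Rank counts from 1 at the highest fold enrichment, the authors' own ratio of ChIP signal to a background that the files do not name, and is read within a list only. With the control shRNA the ranks ran from 393 to 2562 of 2757, with a median rank percentile (low values are high ranks) of 63.4, against 45.8 over all protein-coding genes with a peak. After DHX9 knockdown they ran from 528 to 4034 of 4443, with a median percentile of 66.7 against 45.5. The 6 ranks of the U2AF1 knockdown list ran from 258 to 1529 of 1730, with a median percentile of 31.4 against 41.6, and 6 values fix a median poorly. Above the middle rank of their list lay 8 of 18 control peaks, 4 of 6 U2AF1 knockdown peaks and 12 of 34 DHX9 knockdown peaks. The highest fold enrichment of a member was 5.88 (control), 6.67 (U2AF1 knockdown) and 7.69 (DHX9 knockdown).

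MRPS5, the homologue of the bacterial small subunit protein S5 near the mRNA entry site, was high in the control and DHX9 knockdown lists. Its control peak (chromosome 2, 95121647 to 95122243) had a fold enrichment of 5.35, −log10 q of 9.88 and rank 576. The U2AF1 knockdown peak (95121643 to 95121917) had a fold enrichment of 4.98, −log10 q of 4.60 and rank 752, and its summit lay in a coding exon. The DHX9 knockdown peak (95121756 to 95122251) had a fold enrichment of 7.67, −log10 q of 11.6 and rank 532. Its summit, 111 bp upstream of the nearest start, was 294 bp from the control summit. By fold enrichment MRPS5 stood above the middle rank in every list, which MRPL57, the only other member in all lists, did not. Ordered by −log10 p, the U2AF1 knockdown peak of MRPS5 had rank 1101 of 1730, below the middle.

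MRPL57, a mitochondria-specific protein of the large subunit, ranked low in the longer lists. Its peak had rank 1979 with the control shRNA (fold enrichment 3.49, percentile 71.8), 331 after U2AF1 knockdown (6.22, percentile 19.1) and 3847 after DHX9 knockdown (3.90, percentile 86.6). Ordered by −log10 p, the U2AF1 knockdown peak had rank 626 of 1730. The start of SKA3, a kinetochore gene on the other strand, lies at -106 bp. The summit of the U2AF1 knockdown list (chromosome 13, 21176562) was nearer to the start of SKA3, at -10 bp, than to that of MRPL57, at -96 bp. With the control shRNA it lay at -43 bp from MRPL57, and after DHX9 knockdown at 60 bp, inside the gene.

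Among the large subunit genes of the control list MRPL34 stood highest, with a fold enrichment of 5.88, −log10 q of 16.3 and rank 393. This peak (chromosome 19, 17292530 to 17292813) does not lie at the main start of MRPL34. Its summit was at alternative starts, at -13218 bp from the canonical one, which had no summit within 1000 bp in any list. After DHX9 knockdown the peak at these alternative starts ranked 3766 (fold enrichment 3.99). MRPL15 followed at rank 661 (chromosome 8, 54135059 to 54135704, fold enrichment 5.16), with its summit in the 5′ UTR.

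MRPL10, of the stalk base, had rank 743 (chromosome 17, 47831295 to 47831604, fold enrichment 5.01) and −log10 q of 16.2, near that of MRPL34. MRPL41, a mitochondria-specific protein, had rank 792 (chromosome 9, 137551895 to 137552165, fold enrichment 4.93). MRPL15, MRPL10 and MRPL41, at rank percentiles of 24, 26.9 and 28.7, had a peak in neither knockdown list. MRPL34 was likewise missing from the U2AF1 knockdown list. MRPS6, of the small subunit, had rank 1059 in the control list (fold enrichment 4.51) and 1181 in the DHX9 knockdown list (6.35), in a start that it shares with the transporter gene SLC5A3.

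In the U2AF1 knockdown list the highest member was MRPL12, the homologue of the bacterial stalk protein L7/L12. Its peak (chromosome 17, 81703076 to 81703604) was 529 bp wide, with a fold enrichment of 6.67, −log10 q of 13.0 and rank 258. The DHX9 knockdown peak there had a fold enrichment of 4.44 and rank 3325, and the summits of these lists were 5 bp apart, at -118 and -113 bp from the start. MRPL17, whose promoter with the NRF1 cores is shown above, had rank 335 with a fold enrichment of 6.21 after U2AF1 knockdown (chromosome 11, 6683116 to 6683328). Its DHX9 knockdown peak had the same fold enrichment and rank as that of MRPL12. MRPL12 and MRPL17 had no peak in the control list.

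MRPL13 and MRPL33 were found in the U2AF1 knockdown list only and stood low in it. MRPL13 (chromosome 8, 120444926 to 120445155) had a fold enrichment of 4.03 and rank 1221. MRPL33 (chromosome 2, 27771769 to 27771992) had a fold enrichment of 2.94, −log10 q of 1.71 and rank 1529, near the lower end of the list. MRPL33 was also the only member with a peak inside its annotated span and away from its own starts. That peak, in the control and DHX9 knockdown lists (rank 915 and 1270), lay at the start of BABAM2, which falls within the longest annotated MRPL33 transcripts.

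Small subunit genes of the DHX9 knockdown list took the highest ranks. MRPS33 led, with a peak at 141014750 to 141015200 on chromosome 7 of fold enrichment 7.69, −log10 q of 13.4 and rank 528, and its summit in the 5′ UTR. MRPS24, the homologue of bacterial S3 at the mRNA entry, followed MRPS5 with a fold enrichment of 7.40 and rank 631 (chromosome 7, 43869291 to 43869631). MRPS26 had a fold enrichment of 7.08 and rank 783 (chromosome 20, 3045866 to 3046311). MRPS34 (chromosome 16, 1772859 to 1773289) tied at 6.35 and rank 1132 with MRPL39 (chromosome 21, 25607309 to 25607633), the highest large subunit gene. All of these except MRPS5 lacked a control peak.

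The next DHX9 knockdown member without a control peak was MRPL2 (fold enrichment 5.71, rank 1734), the homologue of bacterial L2, close to the peptidyl transferase centre. MRPL48, mitochondria-specific, came next (5.70, rank 1737), and MRPL58, a peptidyl-tRNA hydrolase built into the large subunit, had a fold enrichment of 5.62 and rank 1802. Among genes found in the control and DHX9 knockdown lists, MRPL37 had a rank percentile of 88.5 in the former (fold enrichment 2.78) and 36.8 in the latter (5.84), with summits 4 bp apart. MRPL40, a gene of the 22q11 region, had percentiles of 79.8 (3.22) and 27.2 (6.32), and its DHX9 knockdown peak was 1178 bp wide. Others stood at like places in the lists, such as MRPL27 at percentiles of 80.1 and 79.9 and MRPS7 at 77.4 and 74.2. Still others stood lower in the DHX9 knockdown list, such as MRPL34 at 14.3 and 84.8 and MRPL57 at 71.8 and 86.6. These are places within each list, and a difference between lists was not tested.

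Summits clustered at the start. Their median position downstream of the nearest start of the same gene was 2 bp (control), 35 bp (U2AF1 knockdown) and 2 bp (DHX9 knockdown), against 18, 28 and 13 bp over all protein-coding genes with a peak. With the control shRNA 16 of 18 member summits lay within 100 bp of a start (88.9%, 67.2 to 96.9), against 65.2% of all protein-coding genes with a peak in that list. After DHX9 knockdown it was 23 of 34 (67.6%, 50.8 to 80.9), against 63.5%, and in the U2AF1 knockdown list 5 of 6. The farthest summits inside the window were those of MRPL40, 283 bp from its start in the control list, and MRPL18, 268 bp in the DHX9 knockdown list. The nearest beyond it was that of MRPL38, 2685 bp away after U2AF1 knockdown and 2689 bp away in the control list, and windows of 500 and 2000 bp held the same members. By annotation, control summits fell in the 5′ UTR at 8 members, in a coding exon at 1, in an intron at 2 and upstream of the canonical start at 7. After DHX9 knockdown these numbers were 5, 10, 5 and 14. The U2AF1 knockdown median was -96 bp over the 3 peaks with a −log10 q of 5 or more. Distances from the canonical start alone were larger, with a median of 40 bp in the DHX9 knockdown list.

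**Figure D3:**
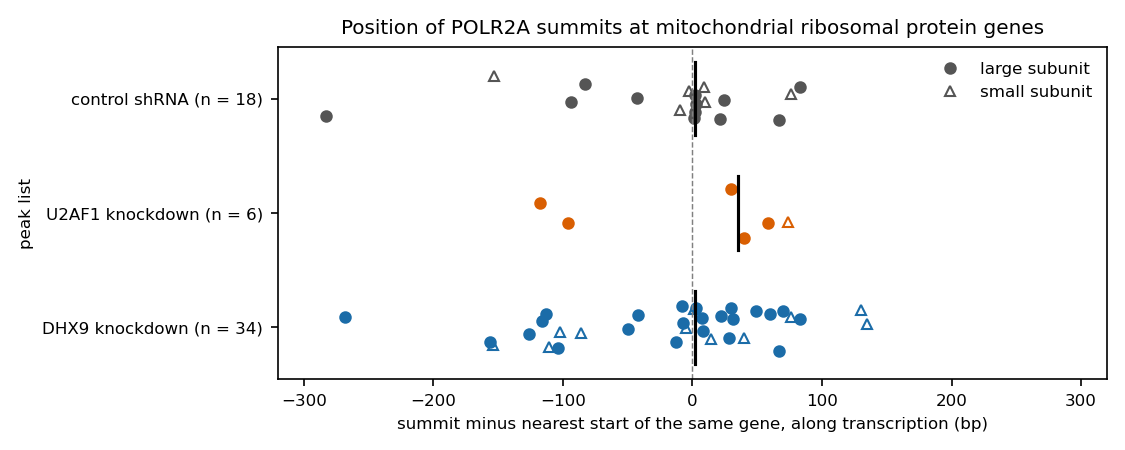
Distance in bp from the nearest start of the same gene to the POLR2A summit (horizontal axis, positive along transcription) for each member with a peak, by list (vertical axis, points spread for view); filled circles are large and open triangles small subunit genes, and black lines are medians at 2, 35 and 2 bp. Points of the control list crowd near 0, with MRPL40 at -283 bp apart from the rest.

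MRPL36, the homologue of one of the smallest bacterial ribosomal proteins, was the only member with more than 1 peak. In the control list it had peaks on chromosome 5 at 1799766 to 1800107 (rank 1291) and at 1801294 to 1801720 (rank 1945). In the DHX9 knockdown list the upstream peak (1801289 to 1801504, rank 3604) was nearer to the start of NDUFS6, a complex I gene. The peak at the main start had rank 3905 there. NDUFS6 had a start peak in the control list as well. Its upstream peaks overlapped between these lists, but its best ranked peaks stood at different starts, with summits 1493 bp apart. For the other 11 members shared by these lists the best ranked peaks overlapped. Over all 12 pairs of best ranked peaks, that of MRPL36 included, the median distance between summits was 78.5 bp.

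Many of these genes start near a gene on the other strand. Counting canonical starts only, a protein-coding gene on the other strand started within 1000 bp of 27 of the 78 members (34.6%, 25 to 45.7), against 10% of all protein-coding genes. Such a pair need not share a promoter. APBA3 starts at -990 bp from MRPL54, and EME2 at 324 bp from MRPS34, downstream of its start. Partners included EME1 at MRPL27, IGHMBP2 at MRPL21, GGA3 at MRPS7, HELQ at MRPS18C, HIRA at MRPL40, and FAU, a cytosolic ribosomal protein gene, at MRPL49. Several partners also serve mitochondria: TWNK, the mitochondrial DNA helicase, at MRPL43, SARS2, a mitochondrial tRNA synthetase, at MRPS12, and NDUFB5, of complex I, at MRPL47. MRPL46 and MRPS11 are partners of each other, each starting at -320 bp from the other, and neither had a peak. MRPL43, MRPS12 and MRPL47 had no peak in any list either.

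Members with such a partner had a peak in at least 1 list in 16 of 27 cases (59.3%, 40.7 to 75.5) and the others in 26 of 51 (51.0%, 37.7 to 64.1). Over all protein-coding genes the shares were 43.7% and 22.8%. A peak at a shared promoter cannot be assigned to 1 gene by position alone. Of the 34 DHX9 knockdown peaks, 18 were also within 1000 bp of a start of another protein-coding gene, and 6 were nearer to it: OAZ3 at MRPL9, TCP1 at MRPL18, IGHMBP2 at MRPL21, NDUFS6 at MRPL36, GGA3 at MRPS7 and HELQ at MRPS18C. Among best ranked control peaks this was so for HELQ at MRPS18C alone, and in the U2AF1 knockdown list for SKA3 at MRPL57. Only the best ranked peak of each member was counted, so the upstream control peak of MRPL36 is left out here. When each peak was given to its nearest protein-coding gene only, 17 (control), 5 (U2AF1 knockdown) and 29 (DHX9 knockdown) members kept one, or 21.8%, 6.41% and 37.2%, beside 10.5%, 5.62% and 17.8% of all protein-coding genes.

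Promoter sequence was compared over the 69 members and 15365 protein-coding genes matched by symbol in the RefSeq promoters, taking the start nearest to the canonical one and both strands. The ETS core CCGGAAG was found in 30 of 69 member promoters (43.5%, 32.4 to 55.2), against 14.8% of all. The YY1 sequence AANATGGCG was found in 18 (26.1%, 17.2 to 37.5), against 5.23%. One or the other was present in 44 (63.8%), against 18.9%, and both in MRPL38, MRPL52, MRPS10 and MRPS18A. The matches lay near the start: of 40 ETS matches 32 began at -100 or later, with a median centre at -21, and of 20 YY1 matches 16 lay downstream of the start on the coding strand, with a median centre at 16. The YY1 sequence contains ATG, and its place after the start can overlap a start codon.

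The NRF1 core GCGCATG was found in 7 member promoters (10.1%, 5.00 to 19.5), against 5.98% of all, and its longer form GCGCATGCG, which contains it, in 3 (4.35%), against 2.79%. The SP sequence GGGCGGG stood at 46.4% against 47.5%, the NF-Y sequence CCAAT at 29% against 36.6%, and TATAAA at 4.35% against 9.42%. The ZNF143 sequence ACTACAATT was found in 0 of 69 (interval up to 5.27%), against 0.501%. The motifs were also counted in members with and without a peak, with no test of the difference and with intervals that overlap. The ETS core was present in 17 of 37 with a peak in at least 1 list (45.9%, 31.0 to 61.6) and in 13 of 32 without (40.6%, 25.5 to 57.7), and the YY1 sequence in 8 of 37 (21.6%, 11.4 to 37.2) and 10 of 32 (31.2%, 18 to 48.6). The NRF1 core was in 2 of 37 (5.41%, 1.5 to 17.7) and 5 of 32 (15.6%, 6.86 to 31.8), and CCAAT in 8 of 37 (21.6%) and 12 of 32 (37.5%). GGGCGGG was in 48.6% of members with a peak and TATAAA in 2.7%. Over all protein-coding genes with a peak, the ETS core stood at 21.9%, the YY1 sequence at 8.83% and the NRF1 core at 9.25%. In those genes GGGCGGG stood at 62.1%, CCAAT at 35.4% and TATAAA at 5.3%. A match is a run of letters and not a measured binding site.

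**Figure D4:**
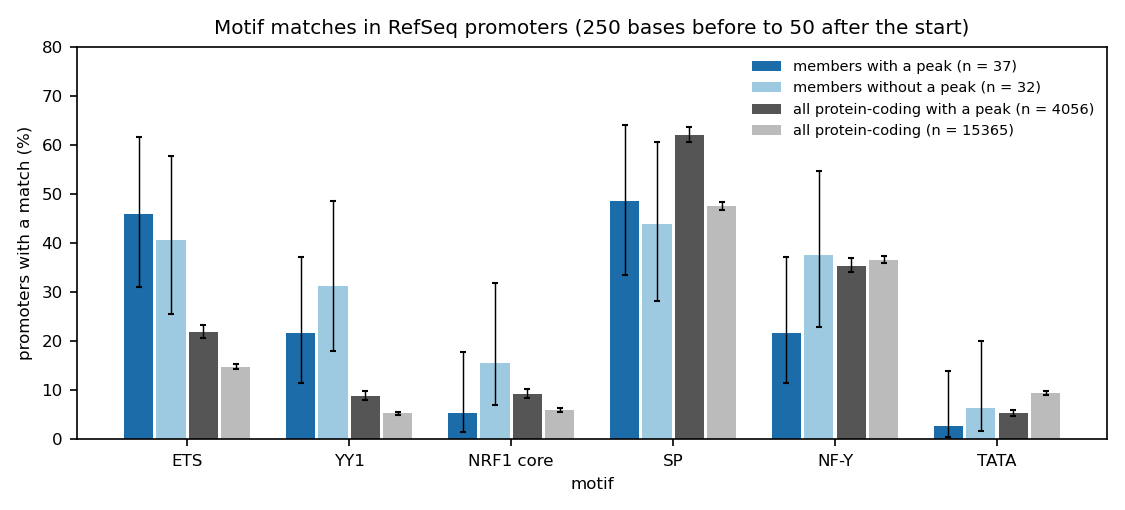
Percent of RefSeq promoters (vertical axis) with a match to each of 6 motifs (horizontal axis) in members with a peak in at least 1 list, members without, all protein-coding genes with a peak and all protein-coding genes; error bars are 95% Wilson intervals. ETS matches stand at 45.9% and 40.6% in members with and without a peak. They stand at 21.9% over all protein-coding genes with a peak and at 14.8% over all protein-coding genes.

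R-loops, hybrids of nascent RNA with its template, are known to form more readily where the coding strand is rich in G. GC skew, the excess of G over C divided by their sum, was therefore taken over the first 500 bases after the canonical start on the coding strand. Its median was 0.10 over the 78 members and 0.05 over all protein-coding genes, and it was above 0 in 64 members (82.1%, 72.1 to 89.0) and in 66.6% of all. It ranged from -0.18 in MRPS18B to 0.31 in MRPS15, neither of which had a peak. Members with a peak in any list had a median skew of 0.096 and those without one 0.105. The 18 members of the control list had a median of 0.032, the 6 of the U2AF1 knockdown list 0.118 and the 34 of the DHX9 knockdown list 0.104. Over all protein-coding genes with a peak the medians were 0.068, 0.060 and 0.068. Some members are in several lists and count in each. A DHX9 knockdown peak stood at 28 of 64 members with skew above 0 (43.8%) and at 6 of 14 others (42.9%). Over all protein-coding genes these shares were 22.6% and 17.8%. A control peak stood at 13 of 64 (20.3%) and 5 of 14 (35.7%), beside 13.5% and 10.8%. For U2AF1 knockdown it was 6 of 64 (9.38%) and 0 of 14, beside 7.04% and 5.86%. A relation of skew to peaks was not tested. Over the same bases the median share of G and C was 60.1% in members and 63.8% in all protein-coding genes. Among those with a peak in any list it was 60.5% and 69.2%.

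Other genes that serve mitochondrial translation gave shares near those of the members. Of 63 such genes, 12 had a control peak (19.0%, 11.2 to 30.4), 3 a U2AF1 knockdown peak (4.76%, 1.63 to 13.1) and 24 a DHX9 knockdown peak (38.1%, 27.1 to 50.4). Among 25 assembly and ribosomal RNA factors, 6, 1 and 13 had a peak, and only MTERF3 was in all lists. The DHX9 knockdown list held, among others, the GTPases MTG2 and GTPBP10 and the RNA methyltransferases MRM2, MRM3, NSUN4 and TFB1M. Of 13 translation factors 2, 1 and 4 had a peak, with the elongation factor GFM1 and the recycling factor MRRF in the DHX9 knockdown list only and the rescue factor MTRFR in all 3. Of 20 genes of mitochondrial aminoacyl-tRNA synthesis 3, 1 and 6 had one. Of 5 mitochondrial ribosomal proteins named otherwise 1, 0 and 1 had a peak, GADD45GIP1 in both cases.

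The mitochondrial transcription genes POLRMT, TFB2M and MTERF1 had no start peak, TFAM had one in the DHX9 knockdown list and TEFM one in the control list. Of the regulators known at such promoters, NRF1, YY1 and MYC had a start peak in every list, GABPA in the DHX9 knockdown list only, and GABPB1, PPRC1 and PPARGC1A in none.

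The 84 nuclear subunits of oxidative phosphorylation, the products of which work beside those of the mitochondrial ribosome, had a peak in 20.2% of cases with the control shRNA (13 to 30), 7.14% after U2AF1 knockdown (3.31 to 14.7) and 32.1% after DHX9 knockdown (23.1 to 42.7). Their intervals overlap those of the members in each list. Their median rank percentiles were 65.1, 45.8 and 34.6, beside 63.4, 31.4 and 66.7 for the members, so in the DHX9 knockdown list they ranked higher. The 81 cytosolic ribosomal protein genes had one in 64.2% (53.3 to 73.8), 23.5% (15.6 to 33.8) and 69.1% (58.4 to 78.1), with median rank percentiles of 34.8, 22.9 and 26. In the control and DHX9 knockdown lists these intervals lie above those of the mitochondrial ribosomal protein genes and do not overlap them. No test was run between gene lists.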

How the data were processed

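POLR2A ChIP-seq peaks of HEK293T cells were used as deposited, 1 list per condition and 9 samples in all. Per the submitters' processing notes, the tools were Bowtie2 2.4.5, deepTools 3.5.1 and MACS2 2.2.7.1 and the build hg38, and their parameters, the use of the input and any pooling of replicates are not given in the sources used here. Fold enrichment, a ratio, and the −log10 p and q values are the authors' own, per the file layout. All 3 lists fitted GRCh38, with 0 peaks beyond the end of a sequence. Peaks were assigned to GENCODE 44 starts with Python 3.11.15 and pandas 2.3.3, and the assignment was tested on simulated data. A gene with several peaks was represented by the best ranked. Shares carry 95% Wilson intervals, and no test was made because no condition has replicate lists. Peaks on sequences without annotation, 82, 100 and 127, were assigned to no gene but stayed in the ranks and list lengths. Cell line markers in the knockdown lists are not reported here. The members, lists and motifs were chosen with earlier results of these data known. Genes named singly were the 6 best ranked in each list, the strong control members missing from a knockdown list, the members gained in a knockdown list (at most 6 for DHX9) and members with several peaks. Others were named by pattern of lists, and MRPL27, MRPL37, MRPL40, MRPL48, MRPL58, MRPS7 and promoter partners after their values were seen. Alternatives were other windows, significance, list length, starts and assignments.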

Additional observations from a re-analysis of the deposited data

How the results depend on the processing

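Values were recomputed under the other settings, and 160 stayed within their interval and 18 did not. This count does not measure robustness, since some values could hardly move. Equal length leaves the U2AF1 knockdown list unchanged, and the intervals of its medians span all 6 member peaks. The order of the subunits turned in the control and DHX9 knockdown lists at equal length, and in the control list with −log10 q of at least 5. The median offset after U2AF1 knockdown changed sign in the latter setting, from 35 to -96 bp, with 3 peaks left. It still counts among the 160, as its interval ran from -118 to 74 bp. Limiting each list to 1730 peaks moved the share of members to 10.3% in the control list and 12.8% in the DHX9 knockdown list. All protein-coding genes then stood at 8.05% and 8.44%. In the same setting large subunit shares were 8.16% and 8.16%, the small subunit share under DHX9 knockdown 20.7%, and cytosolic ribosomal proteins 44.4% there. Oxidative phosphorylation genes stood at 10.7% and 20.2%, and other mitochondrial translation genes at 17.5% under DHX9 knockdown. By construction this setting shortens the longer lists. With −log10 q of at least 5, members stood at 25.6% under DHX9 knockdown and 0.0% in all lists, large subunit genes at 12.2% and 26.5% in the control and DHX9 knockdown lists, the small subunit at 0.0% under U2AF1 knockdown, and other mitochondrial translation genes at 27% under DHX9 knockdown. Assigning peaks to the nearest gene gave those genes 1.59% and 27% in the knockdown lists. With canonical starts only, the median offset was 40 bp under DHX9 knockdown. Ranked by −log10 p, 12 of 18, 5 of 6 and 26 of 34 member peaks stayed in the same tercile of their list. No paired analysis was possible because only 1 list per condition was used, and for the same reason no replicate could be left out. Depth limits what a missing peak can say.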
